A study of Drosophila melanogaster with 7 samples.

Results

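Anterodorsal olfactory projection neurons (adPNs) were examined in single-cell RNA-seq counts of the adult *Drosophila melanogaster* central brain. A cell barcode was taken as an adPN when it held at least 1 unique molecular identifier (UMI) of each of *acj6*, *C15*, *Oaz* and *VAChT* and 0 of *repo*, and when it showed 200 genes or more and no more than 30% mitochondrial UMIs. This rule found 490 adPNs among 164038 barcodes, of which 157482 passed the limits on genes and mitochondrial UMIs. The levels of the 5 genes of the rule chose the cells, so they are given as a description only. The adPNs were compared with the 58419 other cholinergic neurons of the same runs, defined by at least 3 UMIs of *VAChT* and none of *C15* or *Oaz*. Narrower comparisons used 12711 of these that also held *acj6*, and 494 *Oaz*-positive cholinergic neurons that held *vvl* but neither *acj6* nor *C15*.

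The brains came from male flies aged 4 to 9 days of 10 inbred wild-type DGRP lines without transgenes, 5 to 9 lines pooled in each of 7 runs. Across the runs, flies had slept or been awake undisturbed or had been kept awake by mechanical sleep deprivation (SD). Others were in recovery sleep, yoked control or gaboxadol-induced sleep. Of 12 conditions, runs 1 to 4 held 4 each, run 5 held 2 and runs 6 and 7 held 3 each. Flies were collected at Zeitgeber (ZT) times 8 and 20 (run 1), 2 and 20 (runs 2 and 3), 2 and 14 (run 4), 20 (run 5) or 8 (runs 6 and 7). The files used here do not join single barcodes to a line, time or sleep state, so each run is 1 replicate of mixed animals, and cells of 1 run are not replicates. The p-values given here measure the spread between runs.

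Projection neurons are the second-order neurons of the fly olfactory system. They collect the input of olfactory receptor neurons in the glomeruli of the antennal lobe and carry it to the mushroom body calyx and the lateral horn, and most use acetylcholine. The anterodorsal neuroblast gives rise to the adPNs and a separate lateral neuroblast to lateral projection neurons, and the POU domain transcription factors Acj6 and Vvl (Drifter) mark these lineages. Within a lineage the target glomerulus follows birth order, and further transcription factors and surface proteins separate the types.

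The rule found 36, 135, 143, 88, 29, 42 and 17 adPNs in runs 1 to 7, which was 0.163% to 0.458% of the barcodes kept per run. Their median depth was 17760 to 22929 UMIs by run, against 5296 to 8618 UMIs in other cholinergic neurons. Depth is tied to the rule, which needs a UMI of each of 4 genes, and the cells that lacked only *Oaz* or only *C15* had medians of 6683 to 12917 and 9097 to 17401 UMIs. Of the 490 adPNs, 0 shared a barcode with an adPN of another run and 15 with another cell of another run, within 3011 barcodes that occurred in more than 1 run. Many cells fell just outside the rule. Cells that lacked only *Oaz* numbered 31 to 251 per run, and those that lacked only *C15* numbered 17 to 159, whereas 0 to 3 lacked only *acj6* and 0 or 1 lacked only *VAChT*. Just inside it, the median adPN held 2 to 4 UMIs of *C15* by run, and 317 of the 490 held at least 2 UMIs each of *acj6*, *C15* and *Oaz*.

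Of the genes that define the cells, *acj6* averaged 517.5 ± 95.1 raw CPM (SD, n = 7 runs; CPM are counts of a gene scaled to the total UMIs of its cell group) in adPNs and 133.1 ± 14.0 in other cholinergic neurons. In adPNs the homeobox gene *C15* averaged 168.9 ± 29.0 and the zinc finger gene *Oaz* 317.0 ± 29.5 raw CPM, with 0 in the other neurons by their definition. *VAChT*, the vesicular acetylcholine transporter, averaged 959.6 ± 56.3 raw CPM in adPNs and 807.6 ± 61.8 in other cholinergic neurons. *Cha*, the choline acetyltransferase gene, which the rule did not use but whose exons overlap those of *VAChT*, was at 631, 745 and 865 CPM after TMM normalization (lowest, median and highest of 7 runs) in adPNs, against 375, 407 and 423 CPM in other cholinergic neurons. All further CPM compared between groups are normalised in this way. The difference of 0.88 on the log2 scale had an adjusted p of 8.76e-11 in edgeR's quasi-likelihood test with the run as a block, and stayed under the fold threshold of 1 that a call needs. *vvl*, the marker of the lateral lineage, was at 2.75, 16.1 and 30.1 CPM in adPNs and at 115, 179 and 198 CPM in other cholinergic neurons, a log2 difference of -3.29 (adjusted p = 5.21e-11).

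UMIs of other transmitter types were found in adPNs of every run. *Gad1*, which makes GABA, had a UMI in 55.2% to 72.7% of the adPNs of runs 2, 3 and 4 and in 10.3% to 23.5% of those of the other runs, and *VGlut*, the vesicular glutamate transporter, in 52.4% to 60.2% and 13.8% to 25.0%. Glia of the same runs (*repo* of at least 2 UMIs, no *VAChT*, median depth 3362 to 5823 UMIs), which should lack both genes, had a *Gad1* UMI in 8.75% to 68.9% of cells by run and a *VGlut* UMI in 10.0% to 65.0%. The shares in adPNs, which were the deeper cells, lay close to those of glia and are not read as expression. In CPM, *Gad1* was at 24.7, 83.8 and 115 in adPNs, against 178, 228 and 453 in other cholinergic neurons (log2 difference -2.05, adjusted p = 1.21e-10). Of the adPNs, 375 held fewer than 3 UMIs of either gene, and values without the rest are given where they differ.

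Among all 7745 genes tested, 303 (3.91%) were higher and 735 (9.49%) lower in adPNs than in other cholinergic neurons, at an adjusted p under 0.05 and a log2 difference of at least 1. The transcription factor genes of the Iroquois complex, *otp*, *tup*, *hth* and *kn* were higher in adPNs, whereas 39 of 66 listed transcription factors, 28 of 30 neuropeptide genes and most listed genes of Kenyon cells and glia were lower. The median log2 difference of all genes was -0.06. At the adjusted p alone, 2132 genes were higher and 2558 lower, so passing it without the fold threshold, as *Cha* did, was common. The genes named below were, in each direction, the 15 with the largest difference among those called that moved the same way in all 7 runs and reached 20 CPM in the higher group, together with members of gene lists. Such a choice favours genes whose groups do not overlap between runs. The share of all genes without overlap was not counted, so overlap is given as a description only.

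The Iroquois complex holds 3 related homeodomain genes side by side on chromosome 3L of BDGP6, all on the plus strand: *ara* at 3L:12580672-12596018, *caup* at 3L:12609631-12621798 and *mirr* at 3L:12693639-12710249. Between *caup* and *mirr* lies the long non-coding RNA gene *CR32111*, at 3L:12627934-12648280. All 4 were higher in adPNs, and for none did the 2 groups overlap. *mirr* was at 150, 262 and 315 CPM in adPNs and at 20.2, 31.1 and 35.5 CPM in other cholinergic neurons (log2 difference 3.04 ± 0.069 SE, adjusted p = 3.27e-15). *caup* was at 113, 168 and 210 CPM in adPNs, against 16.5, 20.4 and 24.4 CPM (2.96 ± 0.087, adjusted p = 1.09e-13). *ara* was at 33.0, 46.8 and 65.1 CPM in adPNs, against 5.93, 8.64 and 11.9 CPM (2.47 ± 0.082, adjusted p = 4.42e-13). The lowest run of adPNs was thus above the highest run of other neurons for each of these homeodomain genes. *CR32111* reached 9.40, 25.9 and 39.4 CPM in adPNs, against 1.89, 3.38 and 4.69 CPM (2.89 ± 0.16, adjusted p = 1.35e-10). Without the cells that held 3 or more UMIs of *Gad1* or *VGlut* the differences of *ara* and *caup* were 3.20 and 3.61.

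**Figure D1:**
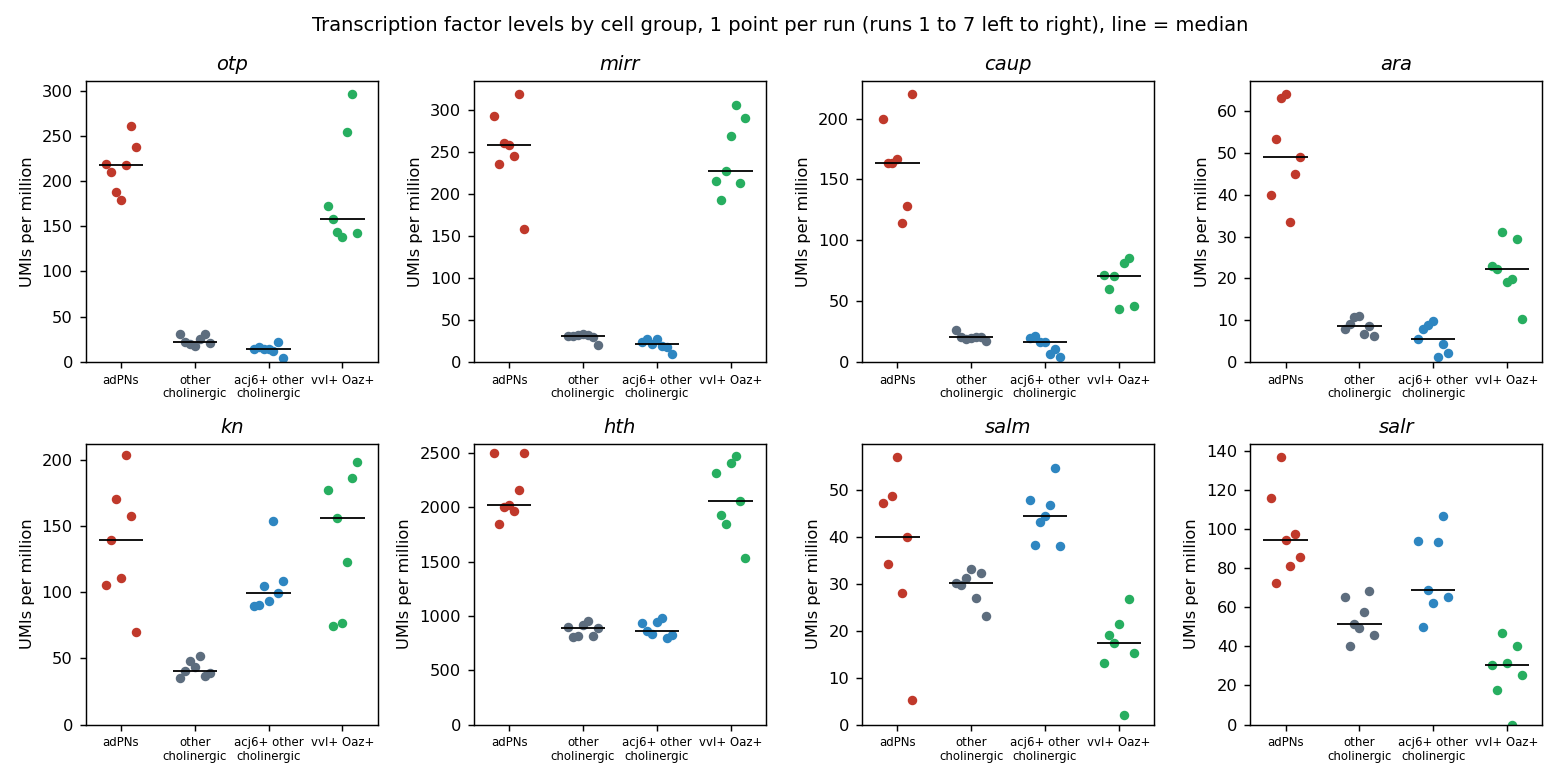
Levels of 8 transcription factor genes (raw CPM, each point 1 run, bars at the median) in adPNs, in other cholinergic neurons, in the *acj6*-positive ones among them and in *vvl*-positive *Oaz*-positive neurons. In adPNs *mirr*, *caup*, *ara* and *otp* lie above both groups of other cholinergic neurons in each run, whereas *mirr* and *otp* lie in the same range as in *vvl*-positive *Oaz*-positive neurons.

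The other transcription factors called as higher showed the same separation of groups. *otp* (orthopedia) was at 182, 212 and 258 CPM in adPNs, against 18.8, 23.4 and 31.0 CPM in other cholinergic neurons (3.16 ± 0.059, adjusted p = 2.22e-16). *tup*, the fly Islet factor, was at 71.5, 87.1 and 128 CPM in adPNs, against 23.9, 25.8 and 29.5 CPM (1.70, adjusted p = 4.41e-11). *hth*, the TALE-class cofactor of Hox proteins, was already present in other neurons, and reached 1867, 2061 and 2381 CPM in adPNs, against 811, 865 and 994 CPM (1.26, adjusted p = 1.01e-11). *kn*, the COE-type factor Collier, was at 66.6, 141 and 201 CPM in adPNs, against 32.6, 43.4 and 51.3 CPM (1.68, adjusted p = 1.36e-10), and its difference was 2.32 in cells of 3000 to 20000 UMIs. No groups overlapped in these genes.

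Of the 66 transcription factors of projection neuron development that could be tested, 7 were higher in adPNs (the 7 above without *CR32111*), 39 were lower and 20 passed neither threshold, with a median log2 difference of -1.72. Among all genes 3.91% were higher and 9.49% lower. *Eip93F*, an ecdysone-induced factor, was at 64.6, 140 and 234 CPM in adPNs and at 372, 436 and 554 CPM in other cholinergic neurons (-1.61, adjusted p = 8.86e-09), and its difference was -1.01 where cells with Kenyon cell genes were left out of the other neurons. The homeodomain genes *B-H1*, *en* and *ems*, also members of this list, had 0 UMIs in all 490 adPNs. Against a floor of 3 UMIs over all adPNs they were at least 13.1-fold, 6.22-fold and 6.81-fold lower than in other cholinergic neurons. With these 3 at their bounds the median of the list was also -1.72. *Optix*, a Six-type homeobox gene, was at 1.37, 4.15 and 14.5 CPM in adPNs, against 92.6, 107 and 130 CPM (-3.53, adjusted p = 5.56e-11). *Sp1*, a zinc finger gene, was at 0, 0 and 4.34 CPM, against 25.1, 27.9 and 34.6 CPM (-3.52, adjusted p = 3.21e-09). *pros* and *br* differed by -0.74 and -0.66 and did not reach the fold threshold.

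**Figure D2:**
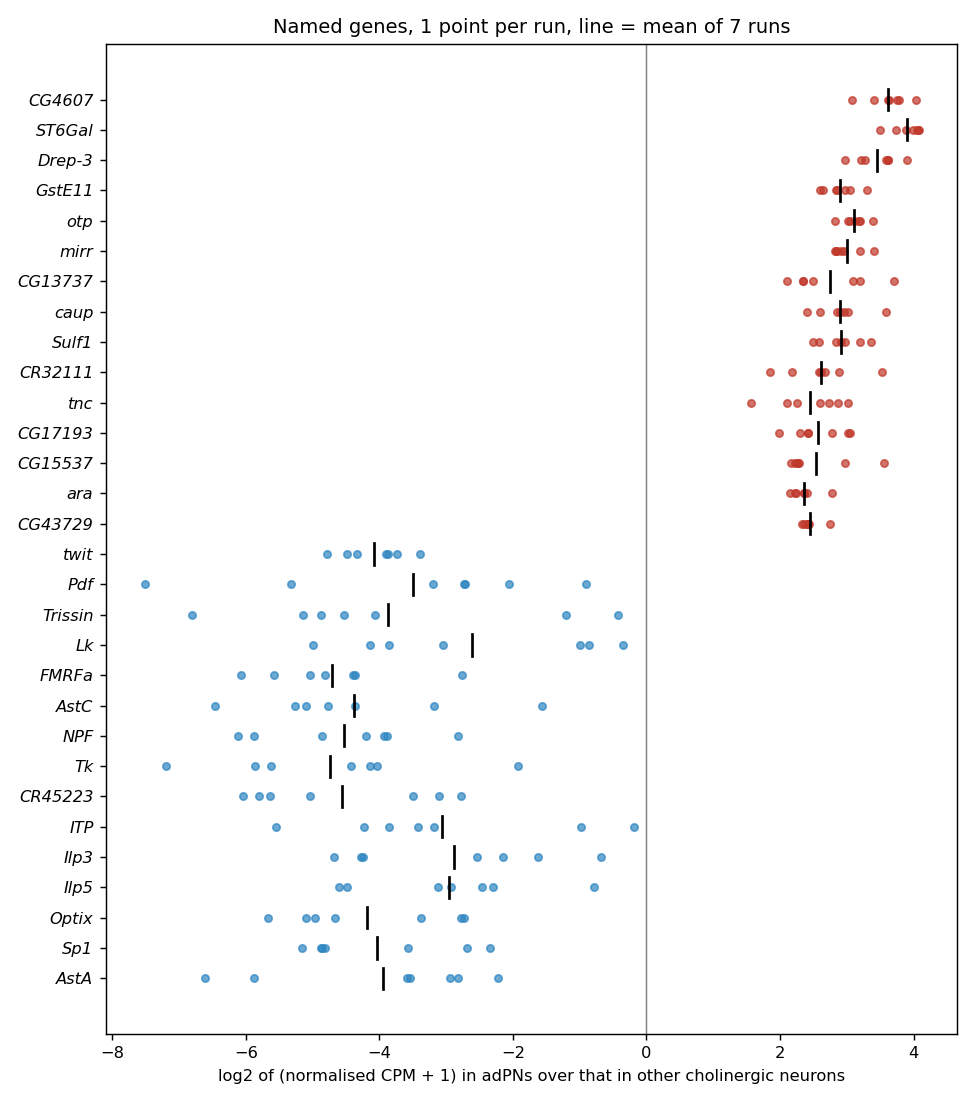
Log2 ratio of CPM plus 1 in adPNs over other cholinergic neurons, by run, for the 15 genes named as higher and the 15 named as lower. Each point is 1 run. All points of *mirr*, *caup*, *ara* and *otp* lie above 0, and peptide genes such as *Pdf* and *Trissin* are spread widely between runs.

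Beyond transcription factors, the 15 genes named as higher included enzymes and proteins of the cell surface and matrix. *ST6Gal*, a sialyltransferase gene (now *SiaT*), was at 316, 429 and 571 CPM in adPNs, against 24.6, 28.0 and 34.9 CPM (3.97 ± 0.066, adjusted p = 8.43e-17). *Sulf1*, an endosulfatase that edits heparan sulfate, was at 166, 197 and 269 CPM, against 20.6, 26.8 and 30.1 CPM (2.90, adjusted p = 1.35e-13). Its exons overlap those of *SF2* on the same strand. *dally*, a glypican that carries heparan sulfate, was also higher, at 370, 501 and 582 CPM in adPNs, against 99.6, 135 and 204 CPM (1.72, adjusted p = 1.29e-12). The other glypican, *dlp*, was lower, with 0, 5.37 and 8.66 CPM in adPNs and 12.2, 16.7 and 19.3 CPM in other cholinergic neurons (-1.46, adjusted p = 5.00e-06), and its difference was -0.91 without cells with Kenyon cell genes. *tnc*, the matrix protein Tenectin, was at 71.5, 130 and 176 CPM, against 15.2, 22.7 and 24.6 CPM (2.62, adjusted p = 1.05e-11).

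*CG43729* (now *Stacl*), whose product belongs to the STAC proteins that act on voltage-gated calcium channels, was at 3753, 4585 and 5525 CPM in adPNs, against 711, 824 and 977 CPM in other cholinergic neurons (2.44 ± 0.046, adjusted p = 2.22e-16). *Drep-3*, a relative of DNA fragmentation factors, was at 293, 465 and 747 CPM, against 36.6, 41.0 and 48.9 CPM (3.49, adjusted p = 1.02e-14). *GstE11*, a glutathione S-transferase gene, was at 19.7, 27.9 and 36.1 CPM, against 2.32, 2.67 and 3.82 CPM (3.37, adjusted p = 2.75e-12). In each of these genes the groups were apart. The remaining named genes are known here by their symbols only: *CG4607* (4.15), *CG13737* (2.97), *CG17193* (2.55) and *CG15537* (2.54), the last of which differed by 1.51 in cells of 3000 to 20000 UMIs.

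The genes named as lower were mostly neuropeptide genes, whose transcripts are abundant in a few cells. Of 30 neuropeptide genes tested 28 were lower in adPNs and 0 higher, beside 9.49% and 3.91% of all genes. Their median log2 difference was -3.06. *Tk* (tachykinin) was at 0, 4.47 and 35.5 CPM in adPNs, against 117, 138 and 202 CPM in other cholinergic neurons (-3.87, adjusted p = 2.88e-09). *NPF* was at 0, 4.12 and 30.7 CPM, against 57.9, 93.2 and 223 CPM (-4.02, adjusted p = 4.59e-11), and *sNPF*, which Kenyon cells also use, at 20.1, 43.5 and 129 CPM, against 433, 483 and 573 CPM (-3.09, adjusted p = 7.41e-10). These groups did not overlap. *AstA* (-3.49), *AstC* (-4.45) and *FMRFa* (-4.51) were likewise apart in every run, whereas *Pdf* (-5.0), *Trissin* (-4.87), *Lk* (-4.55), *ITP* (-3.70), *Ilp3* (-3.63) and *Ilp5* (-3.58) overlapped between groups.

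The differences of several peptide genes were smaller at limited depth, and the part of other cells' RNA in their values was not tested. In cells of 3000 to 20000 UMIs, *Trissin* and *ITP* differed by -0.47 and -0.89 and were no longer called, and *Pdf*, *Ilp3* and *Ilp5* by -1.52, -1.61 and -1.37. With every cell thinned to 2000 UMIs, an *NPF* UMI was in 0% to 6.82% of adPNs by run, in 0.851% to 12.0% of other cholinergic neurons and in 0% to 8.46% of glia (0% to 34.1%, 1.06% to 33.1% and 0% to 23.3% without thinning). Thinning left out 0 adPNs and 0 to 161 other cholinergic neurons per run. Shares in adPNs within the range of glia are not read as expression. The non-coding RNA *CR45223* (-3.76) and *twit* (-5.14), a Ly6-type gene first found as a target of BMP signalling in motor neurons, completed the 15 genes named as lower.

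Many markers of other cell types were lower in adPNs. Their counts stand beside 9.49% lower and 3.91% higher among all genes. Of 8 Kenyon cell genes 5 were lower and 0 higher, while *trio* (0.47, adjusted p = 1.21e-07) and *mub* (0.26, adjusted p = 2.15e-05) passed the adjusted p in the other direction without the fold threshold and *ab* did not pass (-0.06, adjusted p = 0.337). At the adjusted p alone, 2132 of all 7745 genes were higher. *prt*, a vesicular transporter gene of the mushroom body, was at 1.34, 7.01 and 12.4 CPM in adPNs, against 60.8, 73.5 and 96.6 CPM in other cholinergic neurons (-3.43, adjusted p = 1.05e-11), and *ey*, the Pax6 gene of these cells, at 0, 4.15 and 8.34 CPM, against 36.4, 53.3 and 65.1 CPM (-3.21, adjusted p = 1.00e-11). Of 8 glial genes 7 were lower. The glutamate transporter gene *Eaat1* was at 0, 14.8 and 27.6 CPM in adPNs, against 15.7, 55.0 and 100.8 CPM (-1.88, adjusted p = 7.84e-09). The exception was *Indy*, a citrate transporter gene, at 4.15, 6.72 and 16.5 CPM in adPNs, against 0.373, 0.989 and 2.34 CPM (2.25, adjusted p = 0.00013). The part that these cells played in the comparison with other cholinergic neurons was examined by leaving out those with UMIs of at least 2 of *ey*, *prt* and *sNPF*, which gave 302 genes higher and 683 lower.

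Among receptor genes some members were called. Of 18 monoamine receptor genes 1 was higher and 6 lower, beside 3.91% higher and 9.49% lower among all genes. *Octbeta1R*, a receptor for octopamine, was at 501, 559 and 692 CPM in adPNs, against 157, 198 and 214 CPM in other cholinergic neurons (1.58 ± 0.054, adjusted p = 6.99e-13). *Dop2R*, a dopamine receptor gene, went the other way, with 616, 870 and 1153 CPM in adPNs and 2856, 4700 and 5786 CPM in other cholinergic neurons (-2.24, adjusted p = 1.04e-10). Of 9 nicotinic receptor subunit genes only *nAChRalpha1* passed both thresholds, a count near the 9.49% lower among all genes. It was at 116, 180 and 260 CPM in adPNs, against 378, 476 and 524 CPM (-1.33, adjusted p = 2.21e-10).

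Of 34 peptide receptor genes 2 were higher and 18 lower, beside 3.91% and 9.49% of all genes. *sNPF-R*, the receptor for short neuropeptide F, was higher in adPNs, at 70.5, 96.2 and 141 CPM, against 36.1, 40.9 and 47.2 CPM (1.21, adjusted p = 4.91e-10), although the gene of its ligand was lower. *Nmdar1*, an NMDA receptor subunit gene and 1 of 10 glutamate receptor genes, stood at the threshold. It was at 110, 155 and 186 CPM in adPNs, against 63.3, 76.1 and 78.1 CPM (1.01, adjusted p = 1.81e-08), and fell below a log2 difference of 1 in 6 of the alternatives. Of 22 presynaptic release genes 0 reached the fold threshold with an adjusted p under 0.05 in either direction by edgeR or DESeq2 (median 0.01), although 10 were higher and 7 lower at an unadjusted edgeR p under 0.05. Of 79 genes of cytosolic ribosomal proteins, likewise, 0 were called by either tool (median 0.14), and 47 were higher and 6 lower at that unadjusted p.

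Of 65 surface protein genes that take part in the wiring of projection neurons, 1 (*dally*) was higher, 14 were lower and 50 passed neither threshold (median -0.54), beside 3.91% higher and 9.49% lower among all genes. *Fili*, a leucine-rich repeat protein, was at 5.50, 9.86 and 16.5 CPM in adPNs, against 38.0, 42.2 and 46.9 CPM in other cholinergic neurons (-1.86, adjusted p = 3.57e-10). *trn*, of the same class, was at 9.86, 30.4 and 41.6 CPM, against 72.7, 80.6 and 104 CPM (-1.45, adjusted p = 9.76e-10). The immunoglobulin protein genes *Dscam2* (216, 339 and 400 CPM in adPNs, against 920, 960 and 1017 CPM, -1.58) and *Fas3* (30.2, 41.5 and 75.9 CPM, against 130, 134 and 156 CPM, -1.55) were also lower, without overlap.

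The families of paired surface proteins were counted in the same way, and their counts were not tested against each other. Of 13 Beat genes 6 were lower and 0 higher (median -0.14). *beat-VI* was at 20.7, 47.0 and 59.1 CPM in adPNs, against 185, 194 and 202 CPM in other cholinergic neurons (-2.15, adjusted p = 2.50e-11), *beat-IIa* differed by -1.75, *beat-Ic* by -1.68, *beat-IIb* by -1.44 and *beat-Ib* by -1.25. Their partners of the Side family had 1 of 8 genes lower. Of 9 DIP genes 3 were lower, with *CG42368* (now *DIP-epsilon*) at 4.93, 7.34 and 19.2 CPM in adPNs, against 22.5, 25.7 and 28.6 CPM (-1.53, adjusted p = 4.07e-07), and of their 21 partners of the DPR family 1 was lower. No member of these families was higher. All these counts, among them the 1 of 8 Side genes and 1 of 21 DPR genes, stand beside 9.49% lower among all genes.

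**Figure D3:**
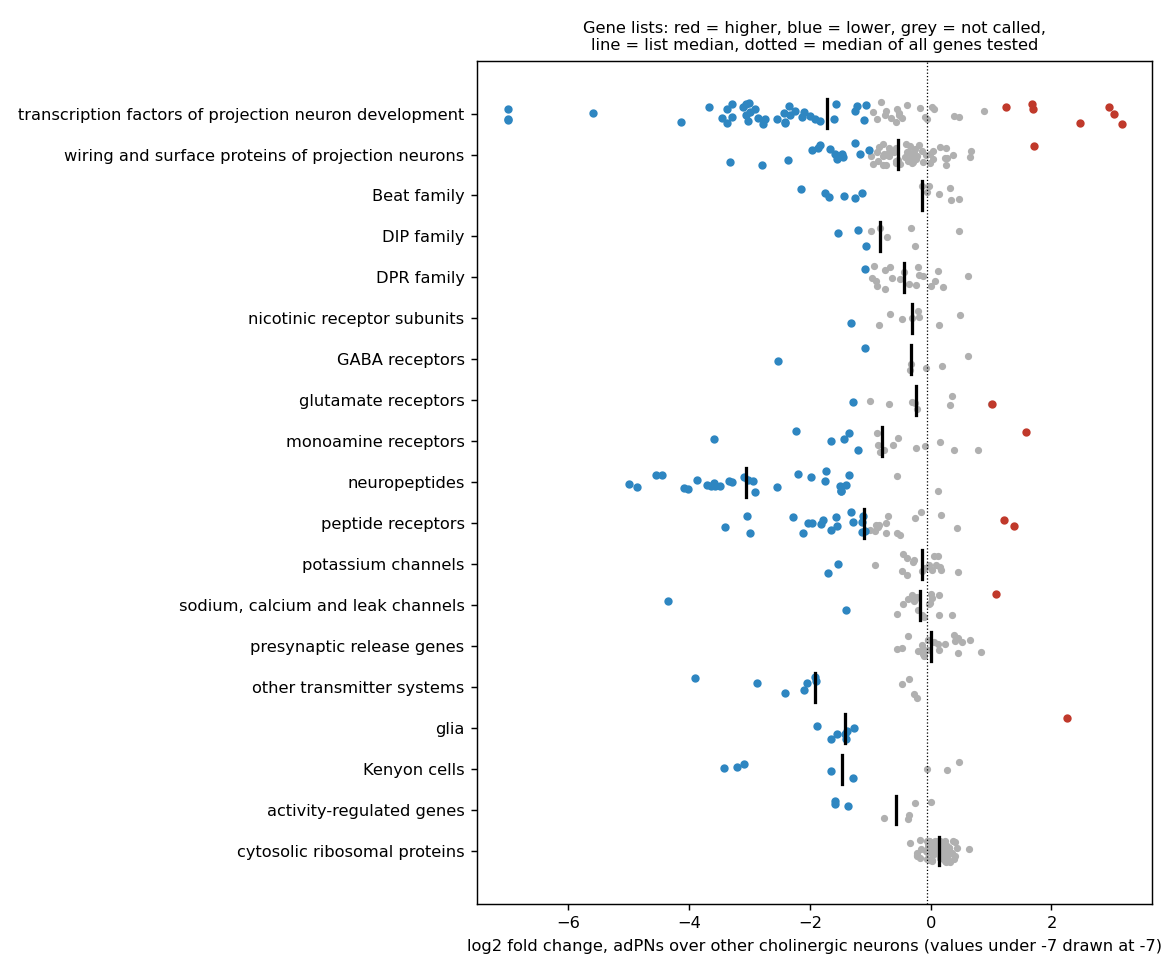
Log2 difference between adPNs and other cholinergic neurons for each gene of each list, 1 point per gene, with the called genes in colour and the list median as a bar. Neuropeptide genes lie mostly below 0 with a median of -3.06, whereas presynaptic and ribosomal protein genes lie close to 0.

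Genes per cell were compared at equal depth, with each cell thinned to 2000 UMIs. The adPNs then held 979 ± 16.1 genes and other cholinergic neurons 938 ± 30.9 (SD, n = 7 runs). The difference averaged 41.2 ± 17.6 genes, lay between 23.1 and 64.9 by run and was positive in 7 of 7 runs (exact two-sided sign-flip permutation test, p = 0.0156, the smallest that 7 runs allow).

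The narrower comparison with *acj6*-positive other cholinergic neurons asked which differences remain among cells that share this factor. The Iroquois genes and *otp* were higher in adPNs here too, while *tup* passed the adjusted p but not the fold threshold (0.62). *kn* was not among the 5 of 56 listed transcription factors called as higher. Its groups overlapped, at 69.9, 139 and 204 raw CPM in adPNs, against 89.7, 99.6 and 154 raw CPM in *acj6*-positive neurons. Of 6970 genes, 242 (3.47%) were higher and 457 (6.56%) lower, and 2046 and 2147 at the adjusted p alone. Both comparisons use the same adPNs and the *acj6*-positive cells are part of the other cholinergic neurons, so the values of this comparison are not independent of those above.

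*mirr* was at 152, 263 and 316 CPM in adPNs and at 8.53, 22.0 and 28.8 CPM in *acj6*-positive neurons (3.51 ± 0.11, adjusted p = 4.97e-12), and *otp* at 183, 212 and 259 CPM, against 3.77, 15.2 and 21.7 CPM (3.78 ± 0.13, adjusted p = 2.16e-11). *caup* differed by 3.38, *CR32111* by 3.30 and *ara* by 2.89, and without the cells with 3 or more UMIs of *Gad1* or *VGlut* these were 4.43, 4.15 and 3.95, and *mirr* 4.52. *CG11835*, at 5.41, 21.4 and 66.5 CPM in adPNs, against 0, 1.46 and 2.28 CPM, joined *CG4607*, *GstE11*, *CG13737* and *ST6Gal* among the 10 genes named as higher. Of the receptors, *Octbeta1R* was at 503, 562 and 696 CPM in adPNs, against 83.3, 122 and 152 CPM (2.23, adjusted p = 8.85e-11), while *Dop2R* (-2.02) and *nAChRalpha1* (-1.42) were lower. *hth* (1.25) and *dally* (1.64) were higher, and *beat-VI* (-2.09) and *Eip93F* (-1.28) lower. *Eip93F* differed by -0.88 in cells of 3000 to 20000 UMIs.

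Among the 10 genes named as lower than in *acj6*-positive neurons were transcription factors and a signalling ligand. *fkh*, a forkhead gene, was at 0, 4.16 and 10.3 CPM in adPNs, against 102, 125 and 145 CPM (-4.16, adjusted p = 3.63e-10), and *Wnt4* at 0, 2.70 and 10.9 CPM, against 50.6, 59.4 and 90.6 CPM (-3.66, adjusted p = 5.03e-09). *Ets96B*, an ETS-type factor gene, had 3 UMIs in all adPNs, and its CPM was 74.1-fold lower there (95% interval of counting error 25.3 to 359). *sosie*, also with 3 UMIs, was 53.8-fold lower (18.4 to 261). The others were *CR45223* (-4.32), *CG14340* (-4.14), the non-coding RNA *MRE23* (-4.13), *Tk* (-3.72), and *Trissin* (-5.09) and *AstC* (-4.68), whose groups overlapped.

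The *vvl*-positive *Oaz*-positive neurons (12 to 130 cells per run, median depth 9709 to 18612 UMIs) were the comparison group with the fewest genes called. *Oaz* is part of the definition of both, and *vvl* marks the lateral lineage, although no marker of lateral projection neurons other than *vvl* was required of these cells. Of 5404 genes, 30 (0.555%) were higher and 75 (1.39%) lower in adPNs. The *vvl*-positive *Oaz*-positive sums held 196448 to 2417944 UMIs per run, against 19708728 to 154929992 for other cholinergic neurons. The part of these smaller sums in the lower counts of calls was not tested. Several factors that set adPNs apart from other cholinergic neurons did not pass the test here. *mirr* was at 152, 263 and 313 CPM in adPNs and at 204, 239 and 304 CPM in *vvl*-positive *Oaz*-positive neurons (log2 difference 0.07 ± 0.11, adjusted p = 0.725). *otp* was at 182, 211 and 257 CPM, against 143, 163 and 294 CPM (0.22 ± 0.087, adjusted p = 0.114), *hth* at 1860, 2055 and 2401 CPM, against 1535, 2052 and 2527 CPM (-0.01 ± 0.083, adjusted p = 0.976), and *kn* at 67.1, 141 and 200 CPM, against 79.0, 164 and 199 CPM (0.12 ± 0.18, adjusted p = 0.727). The groups overlapped in all 4, and the sign of the small *hth* and *kn* differences changed with the tool and the runs used.

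The Iroquois genes divided in this comparison. *caup* was at 112, 167 and 211 CPM in adPNs, against 45.4, 67.4 and 84.6 CPM in *vvl*-positive *Oaz*-positive neurons (1.31 ± 0.14, adjusted p = 9.19e-06). *ara* was at 32.8, 47.2 and 65.2 CPM, against 10.2, 21.8 and 32.6 CPM (1.14 ± 0.13, adjusted p = 2.79e-05), and *CR32111* at 9.41, 25.8 and 39.8 CPM, against 1.97, 6.35 and 15.3 CPM (2.04 ± 0.20, adjusted p = 5.67e-06). Thus *caup* and *ara* were higher in adPNs in 7 of 7 runs without overlap, while *mirr* was higher in 4 of 7 runs. The difference between the genes was itself not tested.

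Over the list of transcription factors 5 of 34 genes were higher and 7 lower, beside 0.555% and 1.39% of all genes. The median was -0.03, beside -0.01 for all genes. Among the higher, the zinc finger gene *salr* was at 73.1, 95.8 and 140 CPM in adPNs, against 0, 29.0 and 49.1 CPM (1.73 ± 0.17, adjusted p = 5.04e-06), and its neighbour *salm* at 4.97, 39.1 and 58.0 CPM, against 1.97, 18.3 and 26.4 CPM (1.26, adjusted p = 0.00022), with overlap. *RunxA*, of the Runt class, was at 16.1, 29.2 and 39.8 CPM, against 0, 3.91 and 20.4 CPM (2.33, adjusted p = 2.79e-05), and *lov*, a BTB domain gene, at 9.41, 33.8 and 57.2 CPM, against 0, 7.89 and 13.8 CPM (1.65, adjusted p = 0.000243). Both overlapped between groups.

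Other genes were lower in adPNs. The homeodomain gene *unpg* (unplugged, 2R:9195205-9199870 in BDGP6) had 3 UMIs in the 490 adPNs and 360 in the 494 *vvl*-positive *Oaz*-positive neurons, a CPM 166.9-fold lower (95% interval of counting error 56.7 to 813). By run it was at 0, 0 and 0.604 CPM in adPNs, against 31.7, 52.2 and 57.3 CPM, so each run of the *vvl*-positive cells had it. *zfh1* (-2.28), *toy* (-1.67), *SoxN* (-1.49), *Lim1* (-1.45) and *Eip93F* (-1.04) were also lower in adPNs, with overlapping groups, and *Eip93F* lost the call under 5 alternatives.

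Among the remaining genes named in this comparison, *Drep-3* (2.34), *CG4607* (1.88), *Sulf1* (1.64), *CG11835* (1.64) and *CG17193* (1.58), each also higher than in other cholinergic neurons or their *acj6*-positive part, were joined by *GstS1*, a glutathione S-transferase gene (1.86). *Dop2R* was at 621, 871 and 1148 CPM in adPNs, against 1692, 2582 and 3448 CPM in *vvl*-positive *Oaz*-positive neurons (-1.51 ± 0.11, adjusted p = 2.44e-07), and *nAChRalpha1* at 117, 180 and 261 CPM, against 300.4, 423 and 481 CPM (-1.18, adjusted p = 1.68e-06). Both receptors were thus lower in adPNs in each of the 3 comparisons. In this comparison 0 of 16 monoamine, 0 of 10 peptide and 0 of 8 glutamate receptor genes were higher. *Octbeta1R*, *sNPF-R* and *Nmdar1*, higher than in other cholinergic neurons, were thus not called as higher than in *vvl*-positive *Oaz*-positive neurons. Of the genes named as lower, *Scp2*, which encodes a calcium-binding protein, was at 0, 29.9 and 69.1 CPM in adPNs, against 5.10, 166 and 732 CPM (-2.69), and *Eip63F-1*, also of the calcium-binding type, at 8.24, 37.6 and 48.3 CPM, against 37.5, 138 and 196 CPM (-1.92). The cation channel gene *Trpm* (-1.53), *Orco* (-1.81), the odorant co-receptor of sensory neurons, *CG10527* (-1.79), *CG14459* (-1.78) and *CG31760* (-1.61) completed the named genes with *beat-Ic*.

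Between the 2 *Oaz*-positive groups 1 of 56 wiring genes was higher and 2 were lower, beside 0.555% and 1.39% of all genes. Of 13 Beat genes 4 were lower and 0 higher, and of 9 DIP genes 2 were lower and 0 higher. *beat-Ic* was at 22.4, 41.7 and 89.95 CPM in adPNs, against 56.1, 181 and 219 CPM (-1.77 ± 0.13, adjusted p = 3.58e-07), and *beat-Ib* at 35.6, 61.9 and 87.5 CPM, against 133, 162 and 172 CPM (-1.31, adjusted p = 1.68e-06). *Drl-2*, a Wnt5 receptor gene, was at 12.4, 24.6 and 36.9 CPM, against 51.3, 61.2 and 127 CPM (-1.24, adjusted p = 0.000234), *CG14010* (now *DIP-eta*) differed by -1.30 and *Fili* by -1.19. In contrast, the adhesion protein gene *rst* (roughest) was at 19.2, 24.9 and 30.9 CPM in adPNs, against 5.29, 10.6 and 14.3 CPM (1.09 ± 0.17, adjusted p = 0.000307). It was the 1 wiring gene called as higher here, so *dally* was not called as higher in this comparison.

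Within the adPNs, genes were ranked by how far their variance between cells exceeded Poisson counting error. The 15 with the highest median rank over the runs were *noe*, *pros*, *mt:lrRNA*, *CG14989*, *CR41602*, *mt:CoIII*, *mt:CoII*, *IA-2*, *mt:ATPase6*, *Hsromega*, *mt:CoI*, *CG31221*, *mt:Cyt-b*, *CG15537* and *jim*. Of these 6 are encoded by the mitochondrial genome, and *noe*, *CR41602* and *Hsromega* are non-coding RNAs. The homeobox gene *pros* (Prospero), the second of the list, divided the cells. Its lower decile over the 490 adPNs was 241.5 raw CPM, its median 8070 and its upper decile 18824. For *hth* these values were 1100, 2031 and 3306, a narrower range. Some cells lay far below it, however, such as cells of run 2 at 0, 102.7 and 105.6 raw CPM of *hth*.

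With a limit of 1000 raw CPM, chosen after the values had been seen, 78 adPNs (15.9%) were low in *pros*, with a median of 202.5, and the rest had a median of 9245. Only 38 of 490 lay between 500 and 2000. Cells low in *pros* numbered 2, 23, 19, 7, 12, 9 and 6 in runs 1 to 7, which was 5.56% to 41.4% of the adPNs by run. They held more UMIs, with a median of 31897 over all runs, against 18393 in cells high in *pros*, except in run 4, where the medians were 17671 and 18472. A *kn* UMI was nevertheless found in 32.1% of the cells low in *pros* and in 60.7% of the others, and the share was smaller in 7 of 7 runs. For *br* the shares were 56.4% and 33.0%, with the larger share in cells low in *pros* in 6 of 7 runs, and for *zfh2* 52.6% and 30.8%. For *Eip93F* they were 42.3% and 56.3% (smaller in 4 of 7 runs), for *mirr* 53.8% and 71.4% (5 of 7) and for *otp* 65.4% and 75.2% (5 of 7). For *tup* they were 82.1% and 74.3% and for *ct* 42.3% and 27.2%, each smaller in 3 of 7 runs. The greater depth of the cells low in *pros* goes with larger shares, and its part in those of *br*, *zfh2*, *tup* and *ct* was not tested.

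**Figure D4:**
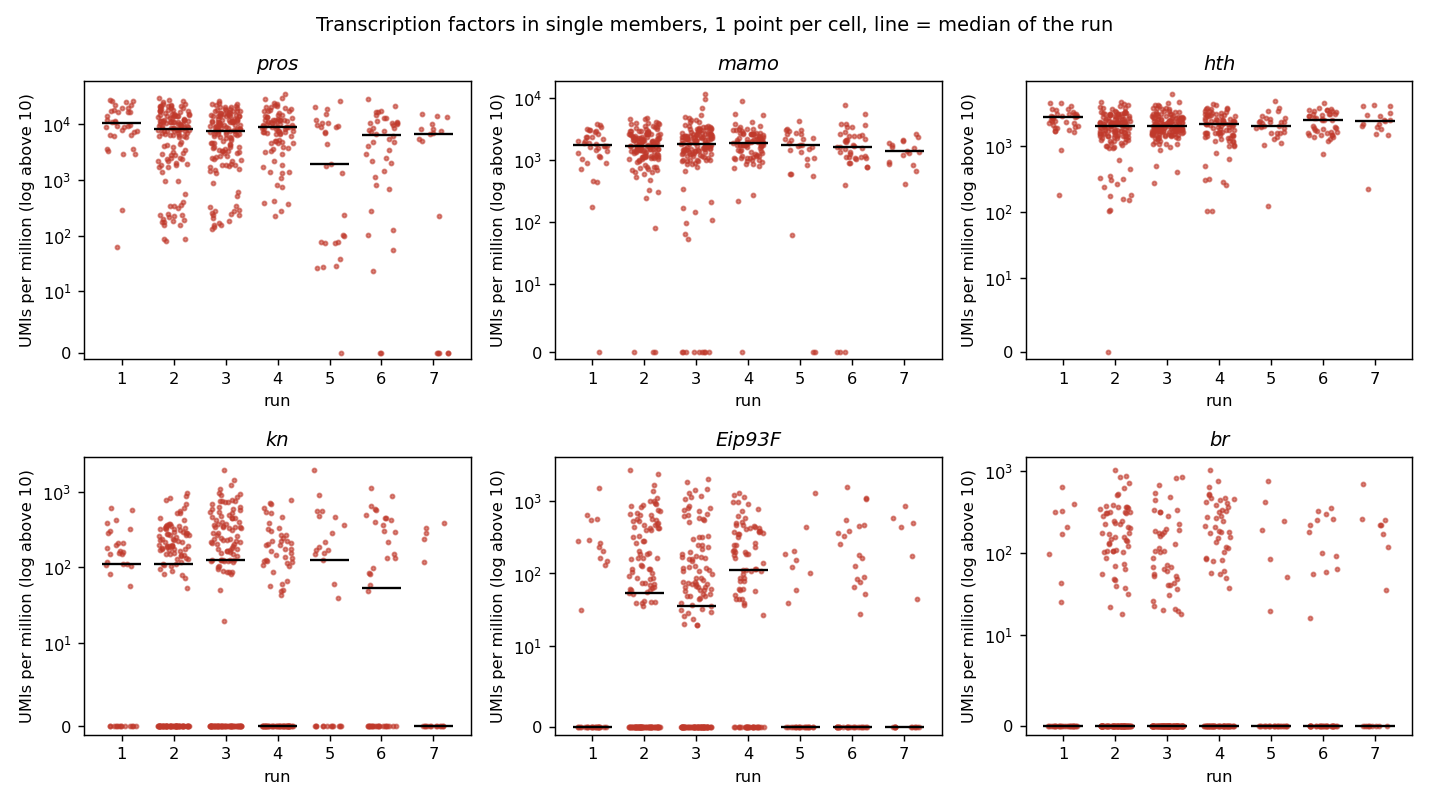
Levels of *pros*, *mamo*, *hth*, *kn*, *Eip93F* and *br* in each of the 490 adPNs by run (raw CPM on a symmetric log axis, 1 point per cell, cells without a UMI at 0). Most cells lie in 1 band of *hth*, with some cells far below it in several runs. *pros* forms 1 dense band at about its median of 8070 with cells far below it, and *kn*, *Eip93F* and *br* are at 0 in many cells of each run.

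Several other factors were found in part of the adPNs. A UMI of *hth* was in 99.8% and of *mamo*, a zinc finger gene, in 96.1%, whereas *otp* was in 73.7%, *mirr* in 68.6%, *caup* in 60.8%, *kn* in 56.1%, *Eip93F* in 54.1%, *ara* in 51.2% and *br* in 36.7%. In glia these shares were 0% to 3.40% for *otp*, 2.23% to 8.68% for *mirr*, 0% to 6.31% for *caup*, 0% to 5.34% for *kn*, 0% to 4.37% for *ara* and 0% to 15.5% for *br* by run, but glia were the shallower cells. With every cell thinned to 2000 UMIs, which left out 0 to 38 glia per run, the shares were 27.1% to 38.3% in adPNs and at most 1.09% in glia for *otp*, 23.9% to 42.5% and at most 3.86% for *mirr*, 17.7% to 34.3% and at most 2.22% for *caup*, 12.7% to 30.0% and at most 2.38% for *kn*, 7.75% to 12.4% and at most 1.73% for *ara*, and 8.34% to 18.6% and at most 7.22% for *br*. At equal depth the shares in adPNs thus lay above those of a cell type that should lack these factors. *Eip93F* was found in 65.0% to 78.5% of glia, a cell type that also uses it, and its share in adPNs cannot be read against that background.

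For 9 pairs of factors the number of adPNs with both was set beside the product of their shares within each run. *br* and *kn* were both found in 51 adPNs, against 99.1 expected, below expectation in 7 of 7 runs. *Eip93F* and *br* were both found in 131 cells, against 100.2 expected, above it in 7 of 7 runs. *mirr* was found with *caup* in 247 cells, against 205.0 expected, and with *ara* in 212, against 172.5 expected, above it in 7 of 7 runs each, while *kn* and *mirr* were found together in 167, against 189.4 expected, below it in 7 of 7 runs. *Eip93F* and *mirr* were found together in 206 cells, against 182.7 expected, above it in 6 of 7 runs, and *Eip93F* and *kn* in 129, against 148.1 expected, above it in 1 of 7 runs. *zfh2* and *kn* were both found in 91 cells, against 94.9 expected, and *zfh2* and *Eip93F* were found together more often than expected in 4 of 7 runs. Cells of 1 run are not replicates and differ in depth, so these counts are given as a description without a test.

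To ask what else goes with one of these factors, the adPNs were divided by *Eip93F*, which had the highest variance above Poisson in runs 1 to 3 among listed transcription factors found in 10% to 60% of cells, and the division was then examined in runs 4 to 7 alone. There, 62, 9, 19 and 6 adPNs held an *Eip93F* UMI and 26, 20, 23 and 11 did not. The cells with it had more *br* and the associated *CG11509*, *jdp*, *CG3726* and *rad*, and less *CG14010*. Of 4182 genes, 5 (0.12%) were higher and 1 (0.0239%) was lower.

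*br*, which encodes the Broad zinc finger proteins of the ecdysone response, was at 193, 96.9, 72.9 and 199 CPM with *Eip93F* in runs 4 to 7, against 9.73, 32.9, 38.4 and 44.8 CPM without it (log2 difference 2.12 ± 0.32, adjusted p = 0.00266). Without run 4 the difference was 1.48. *CG11509* is an older locus that the RefSeq annotation now places within *br* (X:1575132-1664869 in BDGP6), and its reads may belong to the same gene. It was at 62.7, 24.2, 24.3 and 75.7 CPM with *Eip93F*, against 2.43, 3.88, 4.27 and 6.89 CPM (3.30 ± 0.44, adjusted p = 0.0019). The groups were apart in both.

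*jdp*, which encodes a DnaJ-type protein, was at 482, 368, 391 and 1041 CPM with *Eip93F*, against 258, 73.6, 152 and 55.1 CPM without it (1.84, adjusted p = 0.00266). *CG3726* was at 161, 150.1, 132 and 237 CPM, against 65.7, 89.1, 53.4 and 58.5 CPM (1.27, adjusted p = 0.00266), and *rad* at 340, 252, 239 and 189 CPM, against 200, 107, 70.5 and 89.5 CPM (1.16, adjusted p = 0.00207). All 3 were higher with *Eip93F* in 4 of 4 runs. *CG14010* (*DIP-eta*), a surface protein gene, was at 22.3, 0, 6.08 and 18.9 CPM with *Eip93F*, against 73.0, 23.3, 25.6 and 37.9 CPM (-1.80, adjusted p = 0.0295), lower in 4 of 4 runs. *otp* (0.87) and the calcium-binding protein gene *Cbp53E* (-0.82) passed the adjusted p but not the fold threshold. *mirr* did not pass the test (0.56, adjusted p = 0.732). Without the replicate block *jdp*, *rad* and *CG14010* were not called. DESeq2 called neither *jdp* (adjusted p = 0.676) nor *CG14010*, and *CG14010* lost the call without run 5 (adjusted p = 0.0536) and *rad* without run 6 (0.98).

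**Figure D5:**
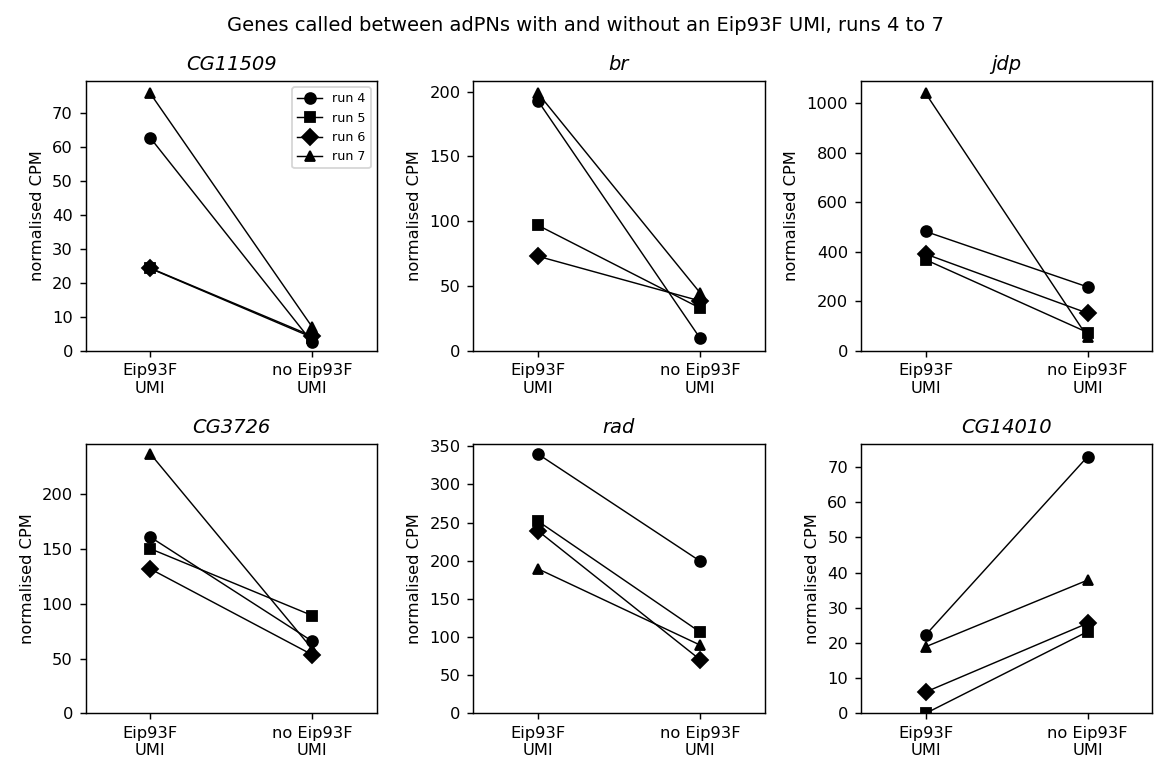
CPM of 6 genes in adPNs with an *Eip93F* UMI (left of each pair) and without one (right) in runs 4 to 7, with lines that join the 2 groups of a run. *br*, *CG11509*, *jdp*, *CG3726* and *rad* are higher and *CG14010* is lower with *Eip93F* in 4 of 4 runs.

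Time of day could be compared only between run 5, with flies of ZT20 alone, and runs 6 and 7, with flies of ZT8 alone. In run 5, 1 gene of 6150 (0.0163%) was higher and 0 (0%) were lower than in runs 6 and 7 by edgeR, with 174 genes higher and 224 lower at an unadjusted p under 0.05. DESeq2 called 0 higher and 1 lower. The gene was *CG12836* (2R:7068572-7069896 in BDGP6), at 83.0 CPM in run 5, against 17.7 CPM in both run 6 and run 7 (2.23 ± 0.34, adjusted p = 0.0134), from 60 UMIs against 24 in all. The ZT20 group is run 5 alone, and its p takes the spread from the sets of ZT times that hold more than 1 run. The call was lost with DESeq2 and without run 1, and with single runs left out 0 to 26 genes were higher and 0 to 22 lower. Run 5 held 29 adPNs and shared no sleep condition with runs 6 and 7, so that time, condition and run cannot be told apart.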

How the data were processed

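Central brains of male DGRP flies were profiled in 7 runs of 10x Genomics 3′ chemistry. The deposited values are UMI counts of 16764 gene symbols in each barcode, which the authors obtained from Cell Ranger 3.1.0 with the BDGP6 genome and left unnormalized. The submitters' processing notes also name dm6 and Scanpy 1.4.4. A deposited table of other, non-numeric entries gives the lines, ZT times, conditions and ages of each run, and 0 columns of other samples were found.

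UMIs of each cell group were summed per run, from 386367 to 3686644 UMIs for adPNs, and tested with edgeR 4.0.16 (R 4.3.3, limma 3.58.1, quasi-likelihood, TMM factors, filterByExpr, run as a block, Benjamini-Hochberg adjustment over all genes). The run is the block because both groups of a run come from the same pooled flies. ZT20 and ZT8 were compared with the set of ZT times as groups and no block. A call needed an adjusted p under 0.05 and a log2 difference of at least 1. The rule genes were left out of the tests, as were *vvl* and *Eip93F* where they defined groups. DESeq2 1.42.0, other scalings and filters, depth limits and single runs left out were alternatives. Python 3.11.15, numpy 2.4.6, scipy 1.17.1, pandas 2.3.3, scanpy 1.11.5 and matplotlib 3.10.9 were used, and the fits were tested on simulated data. Doublets were kept as in the rule, and 1 alternative left out the highest scrublet scores. These were 3.45% to 11.8% of adPNs and 11.6% to 32.3% of other cholinergic neurons by run.

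Named genes were the 15 (10 in narrower comparisons) largest calls each way with 1 direction in all runs and at least 20 CPM, plus genes of 29 lists. For variation among adPNs, they were the 15 genes of highest rank with a UMI in at least 5% of the cells. The adPNs, lists and tests were chosen with earlier results of these data known. List symbols were matched to older symbols after the files had been seen, and 3 of 592 found no match. Positions come from the Ensembl annotation of BDGP6, and *rad* could not be located there. Runs pool lines, and whether their spread is biological or technical is not separated. Intervals are at the 95% level and cover counting error only.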

Additional observations from a re-analysis of the deposited data

Results flagged for a closer look

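Of 70 sets of 7 runs examined for named genes and rule genes, 14 held a run that lay apart from the other 6 in adPNs, with a gap to the nearest run that was large for the range of the set. Chance alone marks about 1 in 20 sets, and genes within a run are not independent.

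Run 4 was the highest for 8 genes. *NPF* was at 30.7 CPM there, *Tk* at 35.5, *ITP* at 66.2, *Ilp3* at 10.2, *Ilp5* at 16.9, *sNPF* at 128.9, *twit* at 1.81 and *Fas3* at 75.9 CPM. The nearest runs had 11.3 (*NPF*), 6.72 (*Tk*), 28.4 (*ITP*), 1.95 (*Ilp3*), 3.67 (*Ilp5*), 64.0 (*sNPF*), 0.667 (*twit*) and 44.7 CPM (*Fas3*). In this run *NPF* UMIs were spread over 30 of 88 adPNs with at most 6 in a cell, *ITP* over 57 and *Ilp5* over 25, whereas 15 cells held the 59 UMIs of *Tk*, 22 of them in 1 cell. Run 4 also had the highest share of adPNs with 3 or more UMIs of *Gad1* or *VGlut*, 37.5%. The part of other cells' RNA in these values was not tested.

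Run 5, with 29 adPNs, was the lowest for *Oaz* (256.9 raw CPM, the nearest run 308.4) and *CG4607* (26.1 CPM, nearest 37.7) and the highest for *Indy* (16.5 CPM, nearest 7.83) and *CG42368* (19.2 CPM, nearest 10.7). It was also the run with the largest share of adPNs low in *pros*, 41.4%. Run 1 was the highest for *sNPF-R* (141.0 CPM, nearest 100.5) and *beat-IIb* (43.0 CPM, nearest 22.2).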

How the results depend on the processing

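Of 142 named results, 128 kept their direction and their side of the thresholds under every alternative run. With at least 2 UMIs of *acj6*, *C15* and *Oaz* the adPNs numbered 317. Without a filter on low counts, 540 genes were higher in adPNs than in other cholinergic neurons, 438 higher and 824 lower than in *acj6*-positive neurons, 73 and 186 than in *vvl*-positive *Oaz*-positive neurons, 11 and 13 at ZT20, and 11 and 8 with *Eip93F*. In cells of 3000 to 20000 UMIs, 150 genes were higher than in *acj6*-positive neurons. With single runs left out, the counts were 303 to 355 higher and 678 to 816 lower against other cholinergic neurons, 224 to 256 and 439 to 503 against *acj6*-positive neurons, 26 to 37 and 63 to 97 against *vvl*-positive *Oaz*-positive neurons, 0 to 26 and 0 to 22 at ZT20 (26 and 22 without run 6, 0 higher without run 1), and 3 to 6 and 0 to 4 with *Eip93F*, and the difference in genes per cell was 37.2 to 44.2. At ZT20, 0 genes were higher and 1 lower by DESeq2, 2 and 2 with the 3 runs of a single time alone, and 2 lower with at least 2 UMIs of the marker genes. DESeq2 called 0 genes lower with *Eip93F*. Without the replicate block, that is without pairing the groups by run, 308 genes were higher and 572 lower in adPNs than in other cholinergic neurons, and 3 and 0 with *Eip93F*. Against *vvl*-positive *Oaz*-positive neurons the sign turned for *hth* (0.0091 by DESeq2, 0.011 without the filter, -0.077 to 0.054 with single runs left out) and *kn* (-0.00921 by DESeq2, -0.051 to 0.263 with single runs left out). The cause of these changes was not tested.

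A further pair of alternatives was chosen after the data had been seen. Without cells with Kenyon cell genes in the other group 302 genes were higher and 683 lower, and without cells with 3 or more UMIs of *Gad1* or *VGlut* 351 and 727. Runs 5 and 7, with 29 and 17 adPNs, give the least precise values. The rule needs 1 UMI of each of 4 genes, so shallow adPNs are missed.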
